A study of Homo sapiens with 8 samples.

Results

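A set of 9 genes was followed here, written by symbol: RIMBP2, SHANK2, DPP6, EPHB1, TMEM132D, NTM, RBFOX1, GLT1D1 and NPHP4. They are 9 of the 19974 protein-coding genes examined, and they were chosen by their relative HP1b coverage, seen to be higher after knockdown of HP1a than in wild type. The values of that contrast are therefore given below as a description with no test. The rule does not use HP1a coverage, which comes from other libraries and was tested, although the genes were proposed with earlier results of these data known. The data went against the choice at NPHP4, whose HP1b covered share overlapped between the knockdown and wild type. GLT1D1 and NPHP4 are also not known as neuronal genes, so the set is called by its genes and not by a cell type.

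The study mapped HP1a and HP1b by ChIP-seq in MCF10A, an established human line of untransformed epithelial cells from breast. There were 4 groups of 2 libraries: HP1a ChIP in HP1b-knockdown cells, HP1a ChIP in wild-type cells, HP1b ChIP in HP1a-knockdown cells and HP1b ChIP in wild-type cells. The wild-type cells are labelled as having no treatment, so they carry no control knockdown, and the sources used here do not say how the knockdowns were made. The remaining level of the knocked-down protein cannot be read from peak lists, and the libraries of a group are not stated to come from separate cultures, so the spread between them may be technical.

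HP1a (encoded by CBX5) and HP1b (encoded by CBX1) are paralogous chromodomain proteins that bind histone H3 methylated on lysine 9 and each other. They are found over compacted, mostly silent chromatin, often as broad domains. Genes that serve synapses and axons are as a rule silent in epithelial cells, and many of them are long genes made up mostly of introns.

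HP1a peaks covered 9.68 to 9.89 Mb of the genome in HP1b-knockdown cells and 60.4 to 69.8 Mb in wild-type cells. HP1b peaks covered 118.4 to 164.9 Mb in HP1a-knockdown cells and 157.1 to 158.1 Mb in wild-type cells. The weakest HP1a peaks listed had a −log10 p of 3.43 in HP1b-knockdown cells and of 2.75 to 2.80 in wild-type cells. For HP1b it was 2.72 and 2.57 in HP1a-knockdown cells and 2.55 and 2.54 in wild-type cells. The lowest −log10 q was 1.00 in every list. The lists thus ended at a like q, while the p at which they ended differed, most of all for HP1a. Because the totals differed, each gene is given on 2 scales. The covered share is the percentage of the gene body's bases that lie in peaks. The relative coverage counts the bases of the gene that lie in peaks, per Mb of the library's whole peak-covered sequence on chromosomes 1 to 22 and X. The lists hold no read counts, so the depth is unknown and no counting interval could be given, and a place without a peak is only a place where none was listed. In a bulk culture, more cells carrying the protein at a site and more protein per cell cannot be told apart.

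Promoter windows show the sequence at which peaks were and were not listed. RefSeq promoters (GRCh38.p14, from 250 bases before to 50 bases after a start site) matched 20 windows of 7 members, all but SHANK2 and GLT1D1. The 4 windows below are from NTM and RBFOX1, each with 1 window that held HP1b peaks in the HP1a knockdown and 1 that held no peak in any of the 8 libraries, and were chosen after these values were seen. Capitals mark each CG dinucleotide, the site of DNA methylation in mammals.
NTM start site on chr11:132211526-132211825, plus strand, with a peak: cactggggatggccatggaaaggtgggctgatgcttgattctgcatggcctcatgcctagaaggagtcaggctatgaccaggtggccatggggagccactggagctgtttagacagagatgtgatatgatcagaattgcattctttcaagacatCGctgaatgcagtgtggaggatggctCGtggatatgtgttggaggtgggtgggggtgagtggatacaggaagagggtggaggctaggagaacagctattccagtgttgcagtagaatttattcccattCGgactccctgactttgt
NTM start site on chr11:131911086-131911385, plus strand, without a peak: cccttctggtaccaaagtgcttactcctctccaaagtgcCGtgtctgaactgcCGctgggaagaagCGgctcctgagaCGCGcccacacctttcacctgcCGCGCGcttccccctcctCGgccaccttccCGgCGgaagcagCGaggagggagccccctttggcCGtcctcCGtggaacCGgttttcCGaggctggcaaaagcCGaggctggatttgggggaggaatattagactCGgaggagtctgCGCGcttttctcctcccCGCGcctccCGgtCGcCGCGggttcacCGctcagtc
RBFOX1 start site on chr16:7332595-7332894, plus strand, with a peak: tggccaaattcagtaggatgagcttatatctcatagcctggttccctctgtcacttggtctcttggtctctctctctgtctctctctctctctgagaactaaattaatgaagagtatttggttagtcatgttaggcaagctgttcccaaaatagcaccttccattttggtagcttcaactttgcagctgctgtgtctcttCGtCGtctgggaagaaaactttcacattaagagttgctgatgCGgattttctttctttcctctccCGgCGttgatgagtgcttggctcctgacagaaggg
RBFOX1 start site on chr16:6019453-6019752, plus strand, without a peak: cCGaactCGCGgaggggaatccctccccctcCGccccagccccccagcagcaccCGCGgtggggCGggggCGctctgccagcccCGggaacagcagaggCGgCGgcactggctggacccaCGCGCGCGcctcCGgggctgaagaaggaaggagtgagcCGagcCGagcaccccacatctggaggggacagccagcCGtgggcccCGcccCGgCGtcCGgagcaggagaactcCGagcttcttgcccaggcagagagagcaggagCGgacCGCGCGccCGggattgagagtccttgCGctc

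The first NTM window lay wholly inside an HP1b peak in HP1a-knockdown replicate 1 and had 110 of its 300 bases in a peak in replicate 2, while the other 6 libraries listed none there. It holds 3 CG, against 27 in the NTM window without a peak. The first RBFOX1 window had 95 bases in an HP1b peak in HP1a-knockdown replicate 2 and all 300 in an HP1a peak in HP1b-knockdown replicate 2, and holds 5 CG, against 30 in the window without a peak. A further RBFOX1 window, chr16:6483136-6483435, goes the other way, with 38 CG and all 300 bases in an HP1b peak in HP1a-knockdown replicate 2. Over all 20 windows, 6 met an HP1b peak in at least 1 HP1a-knockdown library (30%), against 1 (5%) in wild type. Over the 22132 promoter windows of all protein-coding genes these shares were 4.11% in the knockdown and 6.44% in wild type. The windows belong to genes chosen by this same HP1b contrast, so nothing is read from these shares. Only the first NTM window met a peak in both HP1a-knockdown libraries (5% of the members' windows and 0.61% of all windows). The motif CG, which reads the same on both strands, occurred in 20 of 20 members' windows and in 98.1% of all windows. The 6 windows with an HP1b peak in the HP1a knockdown held a median of 7.0 CG (2 to 38), and the 14 without one held 21.5 (5 to 39). In all, 12 of the 20 windows were without a peak in any library.

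Genes of the synapse are described first. RIMBP2 (chr12:130396133-130716299) encodes a presynaptic protein that ties RIM proteins and calcium channels at the site of transmitter release. HP1b peaks covered 25.4 and 38.8% of it in HP1a-knockdown cells, against 3.54 and 4.92% in wild-type cells. Both knockdown libraries lay far above both wild-type libraries, and the mean covered share was 7.59-fold higher in the knockdown, the largest such ratio among the members. The peaks numbered 69 and 92 in the knockdown and 23 and 23 in wild type, and their median width was 731 and 906.5 bases in the knockdown and 420 and 636 bases in wild type. The median deposited fold enrichment of these peaks was 2.84 and 3.05 in the knockdown and 2.95 and 2.99 in wild type, so the ranges of the groups overlapped on that measure. SHANK2 (chr11:70467854-71253234) encodes a scaffold of the postsynaptic density. HP1b peaks covered 31.7 and 50.4% of SHANK2 in HP1a-knockdown cells and 10.96 and 12.7% in wild-type cells, a 3.47-fold higher mean in the knockdown. The widest single HP1b peak in any member lay here, 10431 bases in knockdown replicate 2, against at most 3108 bases in SHANK2 in wild type. The knockdown libraries differed from each other by more at SHANK2 than at any other member, yet the lower of them was still well above both wild-type libraries.

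Of the membrane and adhesion genes, NTM (chr11:131370615-132336822) had the widest separation with the least spread. It encodes neurotrimin, an adhesion molecule of the IgLON family. HP1b peaks covered 41.6 and 40.6% of NTM in HP1a-knockdown cells and 9.49 and 8.38% in wild-type cells, a 4.60-fold higher mean. TMEM132D (chr12:129071726-129904025) encodes a single-pass membrane protein that is expressed in brain. Its share was 27.9 and 31.3% in the knockdown, against 9.28 and 6.20% in wild type. The groups did not overlap at either gene, and at both the number of peaks was also higher in the knockdown. NTM had 281 and 290 peaks in the knockdown and 137 and 130 in wild type, and TMEM132D had 215 and 222 in the knockdown and 120 and 84 in wild type. DPP6 (chr7:153748133-154894285) encodes an auxiliary subunit of A-type potassium channels. It was covered over 21.6 and 27.2% in HP1a-knockdown cells and 7.77 and 6.57% in wild-type cells. EPHB1 (chr3:134795260-135260467), the gene of a receptor tyrosine kinase for ephrin-B ligands in axon guidance, had 22.3 and 29.8% in the knockdown and 8.303 and 7.98% in wild type. Mean HP1b covered shares were 3.82-fold higher at TMEM132D, 3.40-fold at DPP6 and 3.20-fold at EPHB1.

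RBFOX1 (chr16:5239721-7713340) encodes a neuronal splicing regulator and, at 2474 kb, is the longest protein-coding gene in the annotation used. It stood apart in wild type, where HP1b peaks already covered 19.7 and 18.9% of it, against 31.2 and 32.5% in HP1a-knockdown cells. The groups did not overlap, but its 1.65-fold higher mean was the smallest among the members with a gain. GLT1D1 (chr12:128853478-128984968) encodes a protein with a glycosyltransferase domain. It had 33.4 and 44.5% covered in the knockdown and 9.58 and 10.4% in wild type, 3.91-fold higher on average, and it is the next gene to TMEM132D at a distance of 86.8 kb, so these members share a stretch of chromosome 12. NPHP4 (chr1:5862811-5992425) encodes nephrocystin-4 of the ciliary transition zone. HP1b peaks covered 0 and 1.95% of NPHP4 in HP1a-knockdown cells and 1.63 and 0.593% in wild-type cells, so the groups overlapped and no gain was seen.

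**Figure D1:**
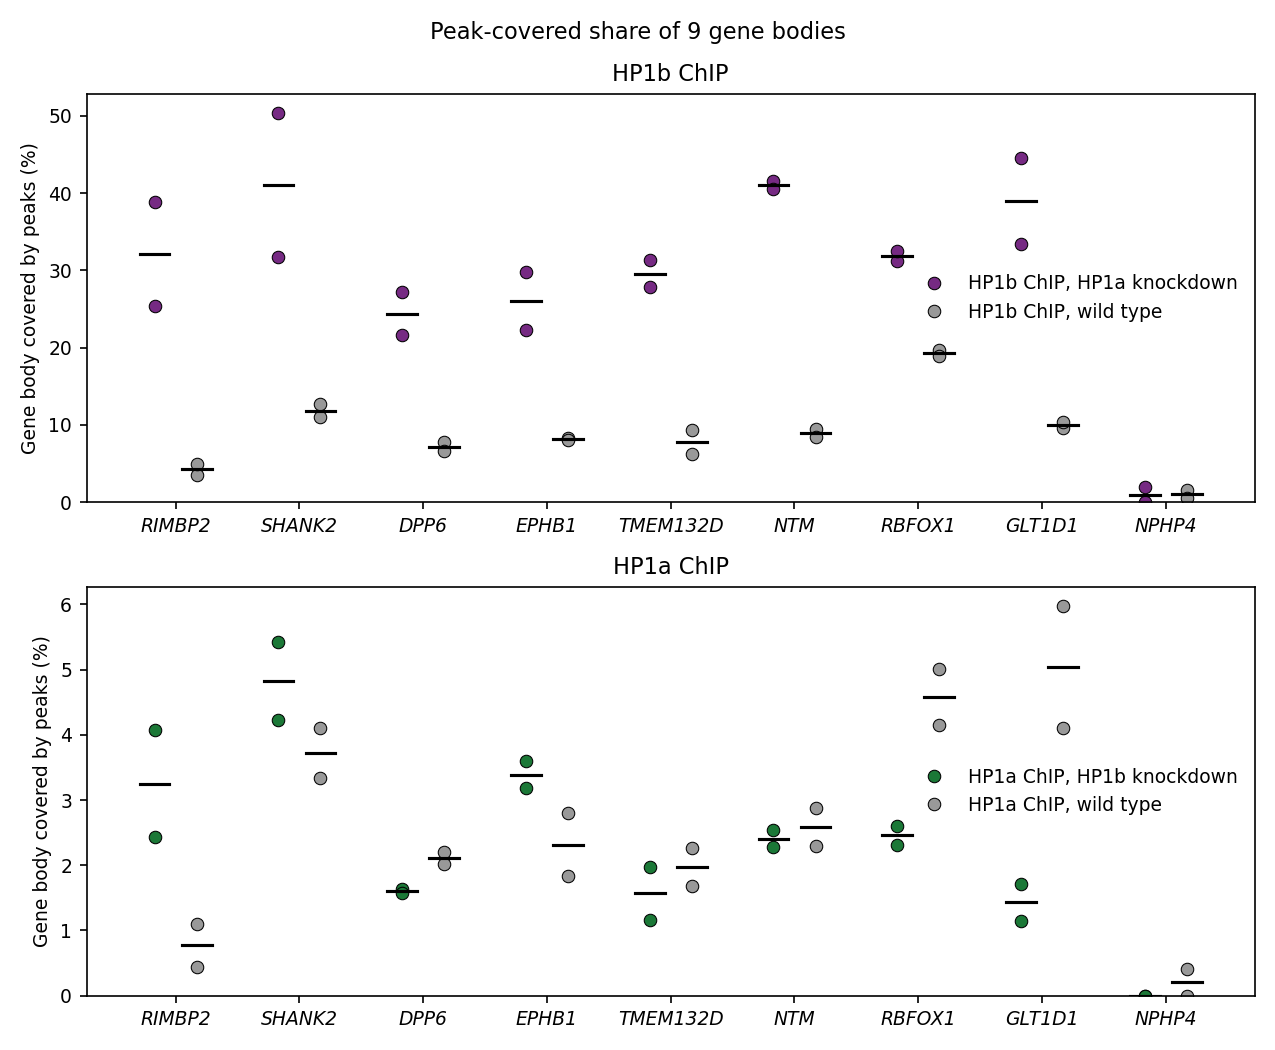
Percentage of each gene body covered by peaks, with each point 1 library and each bar the mean of 2 (HP1b ChIP above, HP1a ChIP below, knockdown left of wild type for each gene). For HP1b the knockdown points lie above the wild-type points at all members but NPHP4, while for HP1a, on a scale far lower, they lie above at RIMBP2, SHANK2 and EPHB1 and below at DPP6, RBFOX1 and GLT1D1.

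Treated as 1 stretch of sequence, the 9 members were covered by HP1b over 31.8% in HP1a-knockdown cells and 12.0% in wild-type cells. All protein-coding gene bodies together had 3.93% in the knockdown and 4.75% in wild type. The members held 1.801 and 1.51% of all HP1b peak bases in the knockdown libraries, against 0.567 and 0.536% in wild type. Covered share was higher in both knockdown libraries than in both wild-type libraries at 8 of 9 members, and at 10.3% of the 12363 genes with enough HP1b peaks. Relative coverage was higher in that sense at the same number of members and at 13.6% of genes. Since this contrast chose the members, nothing is read from these counts. Ranked by the fitted log2 difference among the 12363 genes, the members ran from place 13 for RIMBP2 (log2 3.05) over place 86 for NTM (log2 2.37) and places 131 to 253 for TMEM132D, GLT1D1, SHANK2, DPP6 and EPHB1 to place 1165 for RBFOX1 (log2 0.90) and place 7359 for NPHP4 (log2 −0.76).

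The HP1b peaks of the 8 members other than NPHP4 differed between the groups in number and width, while the ranges of their median fold overlapped. There were 21.6 to 30.4 peaks per 100 kb of gene in HP1a-knockdown cells and 7.18 to 24.9 in wild-type cells. Median peak widths ran from 681 to 1332 bases in the knockdown and from 420 to 668 bases in wild type, so the ranges did not meet. Over all HP1b peaks of a library the median width was 553 to 573 bases in the knockdown and 530 to 533 bases in wild type. Median fold enrichment over the local background, as the authors give it, was 2.81 to 3.16 in the knockdown and 2.87 to 3.20 in wild type. Over all HP1b peaks of a library the median fold was 2.79 in the knockdown and 2.93 to 3.03 in wild type. Only peaks that were listed enter these medians, so like medians do not show like strength. Bases that lay in a peak of both HP1a-knockdown libraries came to 1177 kb over these genes, and bases in both wild-type libraries to 217 kb. Of the 1177 kb, 744 kb met no wild-type HP1b peak in either library, with a share of 46.1% at RBFOX1, 85.0% at GLT1D1 and a median of 72.5% over the 8 genes. Of the bases in both wild-type libraries, a median of 77.2% (46.0 to 100%) lay in a peak of at least 1 knockdown library. Wild-type peak bases found in 1 library alone were not compared in this way. Of the peak bases of HP1a-knockdown replicate 1 in a gene, a median of 53.5% lay in peaks of replicate 2. The other way round the median was 43.6%. The overlap that coverage alone would give was not worked out, so nothing is read from these overlaps.

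Single regions are given with the strength of the peaks that overlap there. A region is the stretch shared by overlapping peaks of both HP1a-knockdown libraries. Each fold is that of a whole peak and not of the shared stretch. Among regions found in both HP1a-knockdown libraries and met by no wild-type HP1b peak, the region with the highest fold in the weaker library of NTM was chr11:131414251-131414907, with a fold of 3.48 and 3.52. In RBFOX1 it was chr16:6110765-6110929, with 3.69 and 3.69. In SHANK2 it was chr11:71206382-71207412, with 3.35 and 3.42, and in DPP6 chr7:154412724-154412908, with 3.98 and 3.34. These shared stretches measured 657 bases in NTM, 165 in RBFOX1, 1031 in SHANK2 and 185 in DPP6. All 4 are within the gene bodies, and whether they lie in exons or introns was not analysed here. NTM had 85 such regions, DPP6 69, TMEM132D 64, RBFOX1 55, SHANK2 41, RIMBP2 31, EPHB1 28 and GLT1D1 6.

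Along the genes the HP1b difference was spread out. With each gene body divided into 10 equal parts, both HP1a-knockdown libraries were above both wild-type libraries in all 10 parts of SHANK2, DPP6, TMEM132D, NTM and RBFOX1, in 9 of RIMBP2, 8 of EPHB1 and 6 of GLT1D1. The parts were not alike. Part 7 of SHANK2, counted from low coordinates, was the least covered in every group, with a mean of 11.9% in HP1a-knockdown cells and 2.51% in wild-type cells for HP1b and of 1.43% in HP1b-knockdown cells and 0.690% in wild-type cells for HP1a. Part 6 next to it had 59.8% for HP1b in the knockdown and 14.4% in wild type. Most of part 7 lies in the 50 kb window centred 525 kb from the low-coordinate end. There no peak was listed in any HP1a library or in HP1b wild-type replicate 1. Whether reads can be mapped there was not examined, so no local difference in HP1 is read from this part. Bases that cannot be mapped would still count in the gene's length for every SHANK2 share. Parts 1 and 2 of EPHB1, on the side of its annotated start, had 3.74 and 5.58% in the knockdown and 4.96 and 4.52% in wild type, while its part 7 had 45.3% in the knockdown and 7.91% in wild type. The last part of GLT1D1, towards TMEM132D, had 67.3% in the knockdown and 5.22% in wild type.

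**Figure D2:**
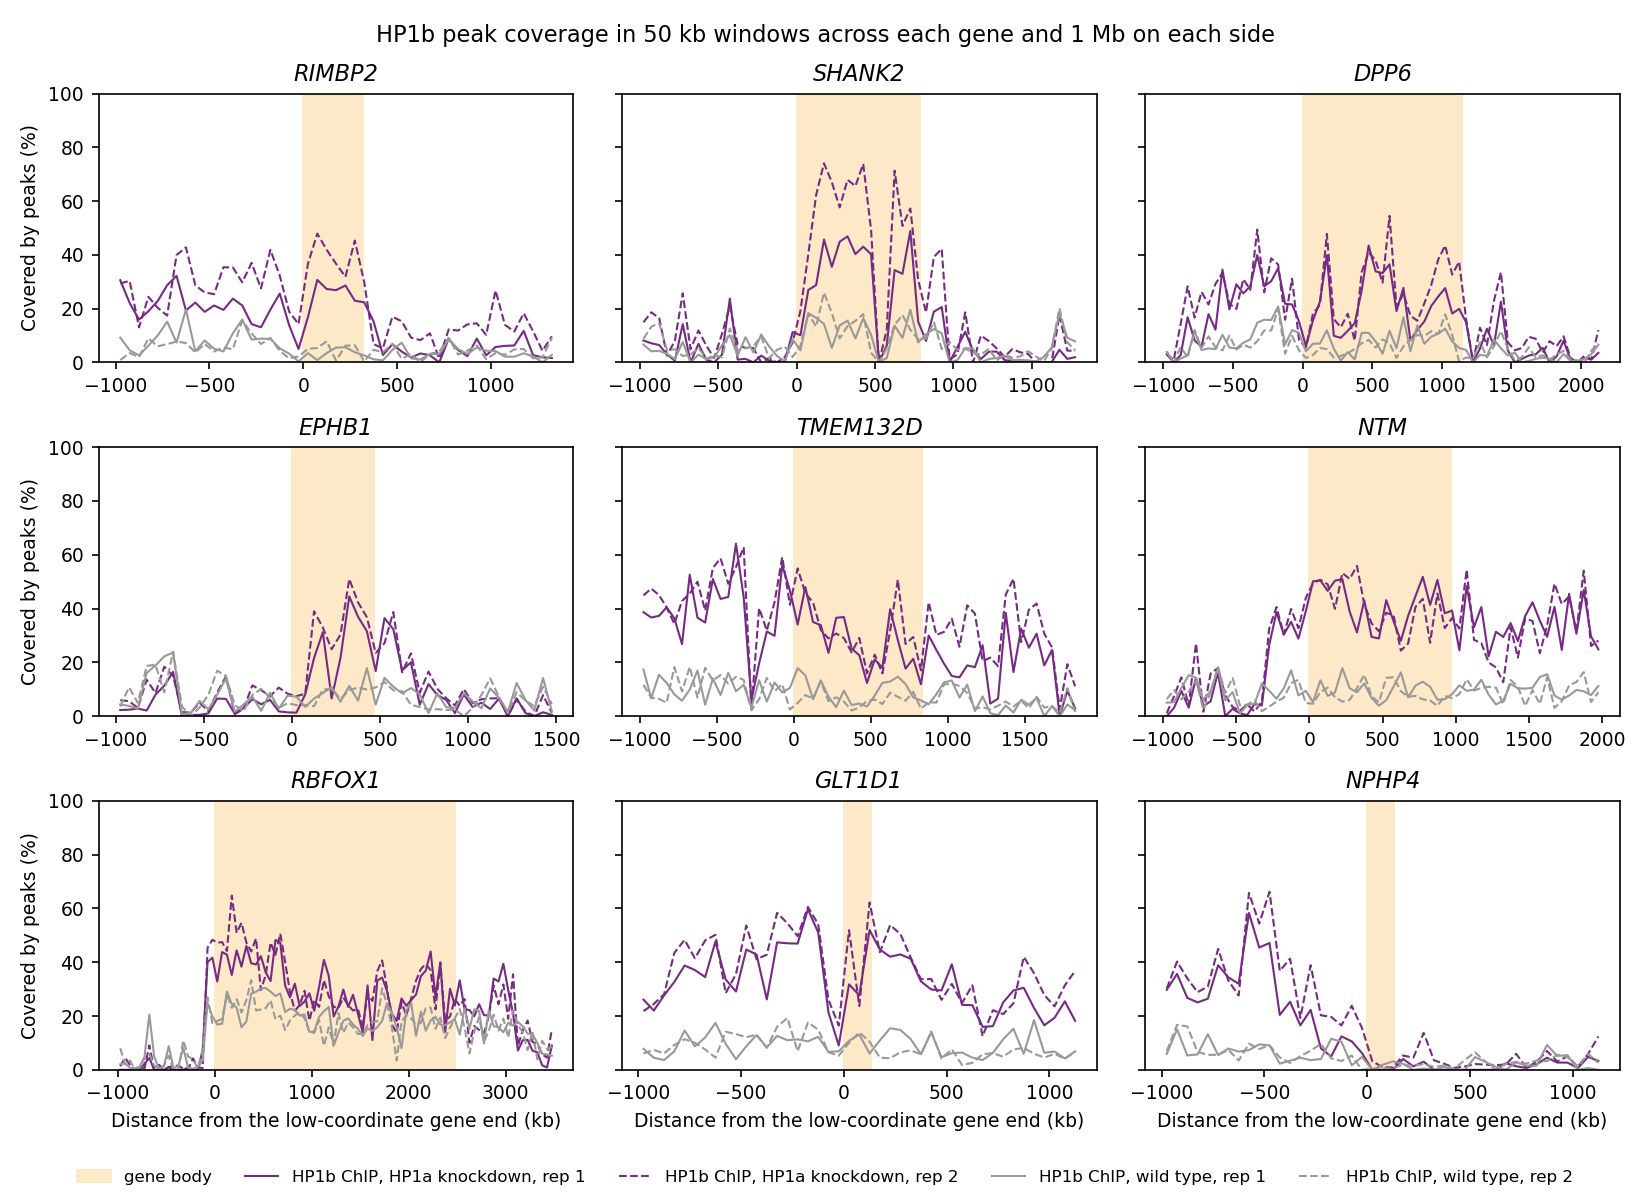
HP1b covered share in 50 kb windows across each gene (shaded) and 1 Mb on each side, against the distance from the low-coordinate end of the gene in kb, for 2 HP1a-knockdown libraries (purple) and 2 wild-type libraries (grey). The purple lines step up at the edges of SHANK2 and at the low-coordinate edge of RBFOX1, run past the edges at TMEM132D, GLT1D1 and NTM, and at NPHP4 are high beside the gene and near 0 within it.

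Where the difference ended set the members apart. SHANK2 had a mean HP1b share of 41.0% within the gene in HP1a-knockdown cells, against 6.53% over the 1 Mb below it and 6.997% over the 1 Mb above it. In wild type these shares were 11.8, 5.19 and 4.98%. EPHB1 had 26.1% within the gene and 5.95 and 10.1% in its flanks in the knockdown, with 8.14, 8.33 and 6.48% in wild type. RBFOX1 had 31.8% within and 5.55 and 18.9% beside it in the knockdown, with 19.3, 5.36 and 14.8% in wild type. At RIMBP2, DPP6 and NTM a flank was also far above wild type in the knockdown. The low-coordinate flank of RIMBP2 had 24.5% in the knockdown and 6.91% in wild type, and that of DPP6 had 21.9% in the knockdown and 7.81% in wild type. The high-coordinate flank of NTM had 33.6% in the knockdown and 9.45% in wild type. Beyond its first 78.2 kb that flank lies within another gene, OPCML. HP1b peaks covered 32.7 and 32.0% of OPCML in the knockdown and 9.43 and 8.81% in wild type. On the low-coordinate side the libraries of the groups overlapped at SHANK2 and RBFOX1, and at EPHB1 both knockdown libraries were below both wild-type libraries. On the high-coordinate side both knockdown libraries were above both wild-type libraries at EPHB1 and RBFOX1. TMEM132D was the opposite case, with 29.6% within and 41.6 and 24.4% beside it in the knockdown, and 7.74, 10.6 and 5.35% in wild type. GLT1D1 had 39.0% within and 38.8 and 31.2% beside it in the knockdown, and 9.97, 10.01 and 7.60% in wild type. GLT1D1, TMEM132D and RIMBP2 lie on the same stretch of chromosome 12, so their flanks hold sequence of one another: those of TMEM132D take in all of GLT1D1 and RIMBP2, that of GLT1D1 takes in TMEM132D, and that of RIMBP2 part of TMEM132D. The paralog TMEM132C also lies in the low-coordinate flanks of GLT1D1 and TMEM132D. Over the 1 Mb on the low-coordinate side of NPHP4 the share was 30.4% in the knockdown and 6.87% in wild type, while within the gene it was 0.976% in the knockdown and 1.11% in wild type. The higher HP1b coverage was therefore listed beside NPHP4 and not in it. With each library taken alone, the gene body had a higher HP1b share than both flanks in both HP1a-knockdown libraries at 6 of the other 8 members, and in both wild-type libraries at 2 of 8. This HP1b contrast chose the members, and bodies were not set against flanks over all genes, so nothing is read from these counts.

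Position and length were shared by most members. Of the 9 genes, 7 lay within 10 Mb of the outermost annotated gene of any kind at either end of their chromosome (77.8%), against 22.2% of all protein-coding genes. The 7 include RIMBP2, TMEM132D and GLT1D1, which share a stretch of chromosome 12, and NPHP4, where no gain was seen. SHANK2 and EPHB1 were the exceptions, at 63.8 and 63.0 Mb. The median length was 785 kb for the members and 24.2 kb for all genes.

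HP1a was measured in libraries that the rule does not use. In HP1b-knockdown cells HP1a peaks covered 2.50% of the 9 members taken as 1 stretch, against 3.15% in wild-type cells, which is 79.4% of the wild-type value. The total hides differences between the members, whose mean HP1a share in the knockdown ran from none listed at NPHP4 and 0.284 of the wild-type mean at GLT1D1 to 4.19 times it at RIMBP2. Over all protein-coding gene bodies HP1a peaks covered 0.294% in the knockdown and 2.04% in wild type, 14.4% of the wild-type value. The members thus held 1.82 and 1.89% of all HP1a peak bases in the knockdown libraries, against 0.323 and 0.382% in wild type.

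RIMBP2 had the largest HP1a difference of the members. HP1a peaks covered 4.07 and 2.43% of RIMBP2 in HP1b-knockdown cells and 1.11 and 0.445% in wild-type cells, with 24 and 11 peaks in the knockdown and 6 and 4 in wild type. Its relative HP1a coverage rose by 4.70 on the log2 scale (SE 0.53, adjusted p 0.024, limma, n = 2 each). SHANK2 had 5.42 and 4.23% in the knockdown and 4.11 and 3.34% in wild type, and its relative coverage rose by 3.09 (SE 0.14, adjusted p 0.024, limma). EPHB1 had 3.18 and 3.60% in the knockdown and 2.80 and 1.83% in wild type, and its relative coverage rose by 3.27 (SE 0.20, adjusted p 0.024, limma). At these 3 genes both knockdown libraries were above both wild-type libraries in covered share as well. Among the 8504 genes with enough HP1a peaks this was so at 1.45%, and both were below at 79.5%.

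At NTM and TMEM132D the covered shares of the groups overlapped. HP1a covered 2.28 and 2.54% of NTM in HP1b-knockdown cells and 2.29 and 2.87% in wild-type cells. TMEM132D had 1.17 and 1.97% in the knockdown and 2.26 and 1.68% in wild type. Against the lower totals of the knockdown libraries, relative coverage rose by 2.62 at NTM (SE 0.22, adjusted p 0.024) and by 2.34 at TMEM132D (SE 0.33, adjusted p 0.0243, limma). DPP6 had 1.64 and 1.58% in the knockdown and 2.21 and 2.02% in wild type, and RBFOX1 had 2.31 and 2.60% in the knockdown and 4.15 and 5.01% in wild type. Covered shares at these genes were lower in both knockdown libraries, while relative coverage rose by 2.32 at DPP6 (SE 0.07, adjusted p 0.024) and by 1.83 at RBFOX1 (SE 0.20, adjusted p 0.024, limma).

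GLT1D1 had the lowest mean HP1a covered share in HP1b-knockdown cells of the 8 members fitted. HP1a peaks covered 1.14 and 1.72% of it in HP1b-knockdown cells and 5.97 and 4.11% in wild-type cells, with 4 and 4 peaks in the knockdown and 15 and 8 in wild type. Its covered share was below wild type in both libraries, and its relative coverage differed by a log2 of 0.88 without passing the test (SE 0.42, adjusted p 0.225, limma). NPHP4 had no HP1a peak in either knockdown library and a peak over 0.409% of the gene in 1 of 2 wild-type libraries, too few to be fitted.

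Relative HP1a coverage rose at 7 of the 8 members fitted and fell at none (limma, Benjamini-Hochberg adjusted p below 0.05). Among all 8504 genes fitted 1.76% rose and 29.1% fell. The members' median log2 difference was 2.48, against −1.22 for all genes. A gene without a peak in a library takes its value there from the pseudocount alone. With the pseudocount multiplied by 4 the medians were 2.43 for the members and −0.51 for all genes. The members are also longer, with a median of 785 kb against 24.2 kb over all 19974 protein-coding genes. No comparison with genes of like length was made. Relative coverage of both knockdown libraries was above both wild-type libraries at 8 of the 9 members, against 9.27% of all genes fitted, with 51.9% below. The corresponding share was 9.57% of the 8128 genes fitted for both proteins, and 28.6% of the 1181 of them whose relative HP1b coverage was higher in both HP1a-knockdown libraries. The calls depended on the processing. None of the 7 passed with the same number of top peaks taken from each library (adjusted p 0.200 to 0.220), where the members' median log2 difference was 2.45 against −0.01 for all genes. Without scaling to the library total none passed as higher, and RBFOX1 (log2 −0.89, adjusted p 0.0162, limma) and GLT1D1 (log2 −1.70, adjusted p 0.0397) passed as lower. On that scale 5 of the 8 had a negative difference, and the median of the 8 was −0.23 against −2.15 for all genes.

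**Figure D3:**
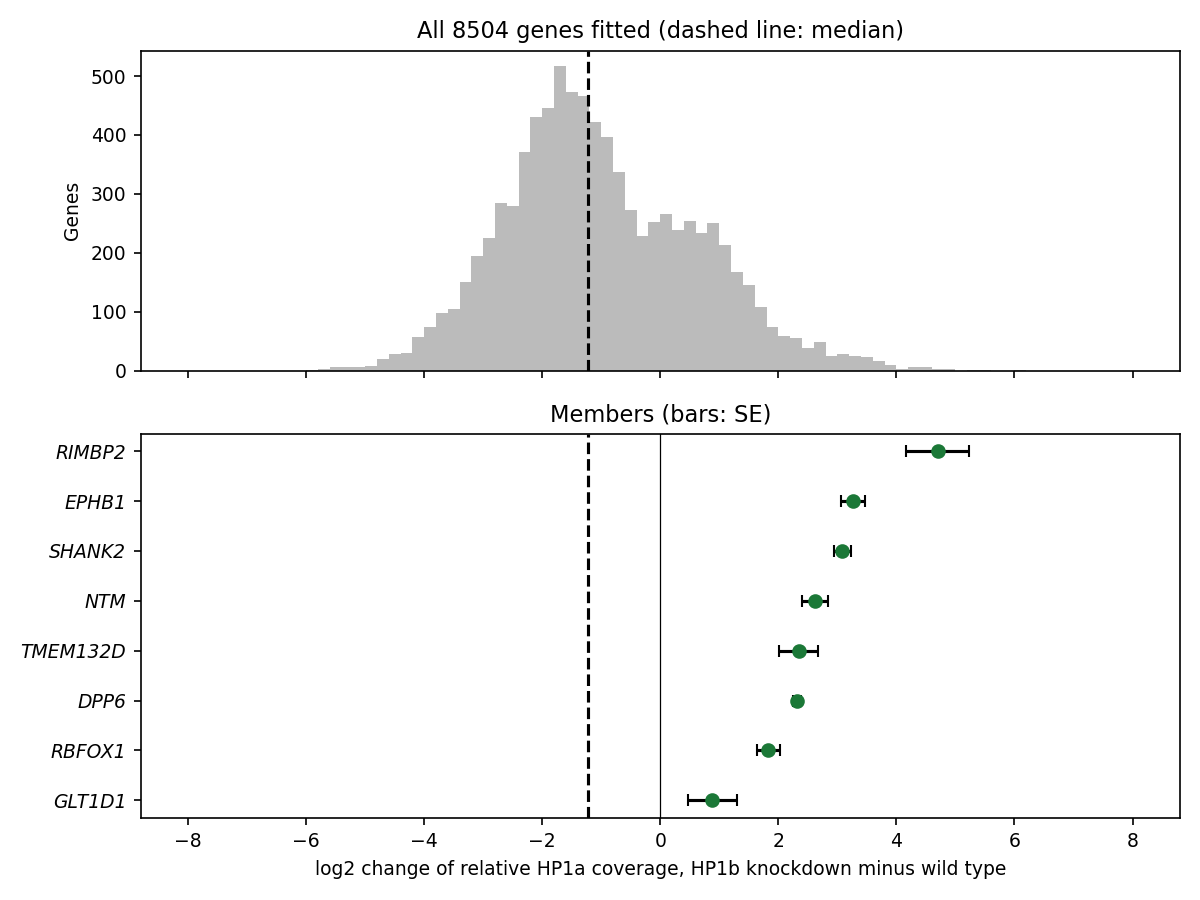
Log2 difference of relative HP1a coverage, HP1b knockdown minus wild type, as a histogram over all 8504 genes fitted (above) and as points with SE bars for the 8 members fitted (below). The dashed line is the median of all genes, −1.22, and the members lie to the right of it, between 0.88 at GLT1D1 and 4.70 at RIMBP2.

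For the HP1a peaks listed in the members, the ranges of median fold and width overlapped between the groups. Median widths over the 8 members other than NPHP4 ran from 355 to 645 bases in HP1b-knockdown cells and from 358.5 to 588.5 bases in wild-type cells, and median fold enrichment from 3.25 to 3.55 in the knockdown and from 3.21 to 3.50 in wild type. Regions found in both libraries were counted as overlapping pairs of peaks, so a wide peak can be counted more than 1 time. With an overlap of at least 1 base there were 35 for HP1a in HP1b-knockdown cells and 71 in wild-type cells. For HP1b there were 1610 in HP1a-knockdown cells and 502 in wild-type cells. Such counts depend on the covered share, and no expected number was worked out, so HP1a and HP1b are not compared by them. With an overlap of 50% required there were 23 for HP1a in the knockdown and 42 in wild type, and 1246 for HP1b in the knockdown and 377 in wild type.

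**Figure D4:**
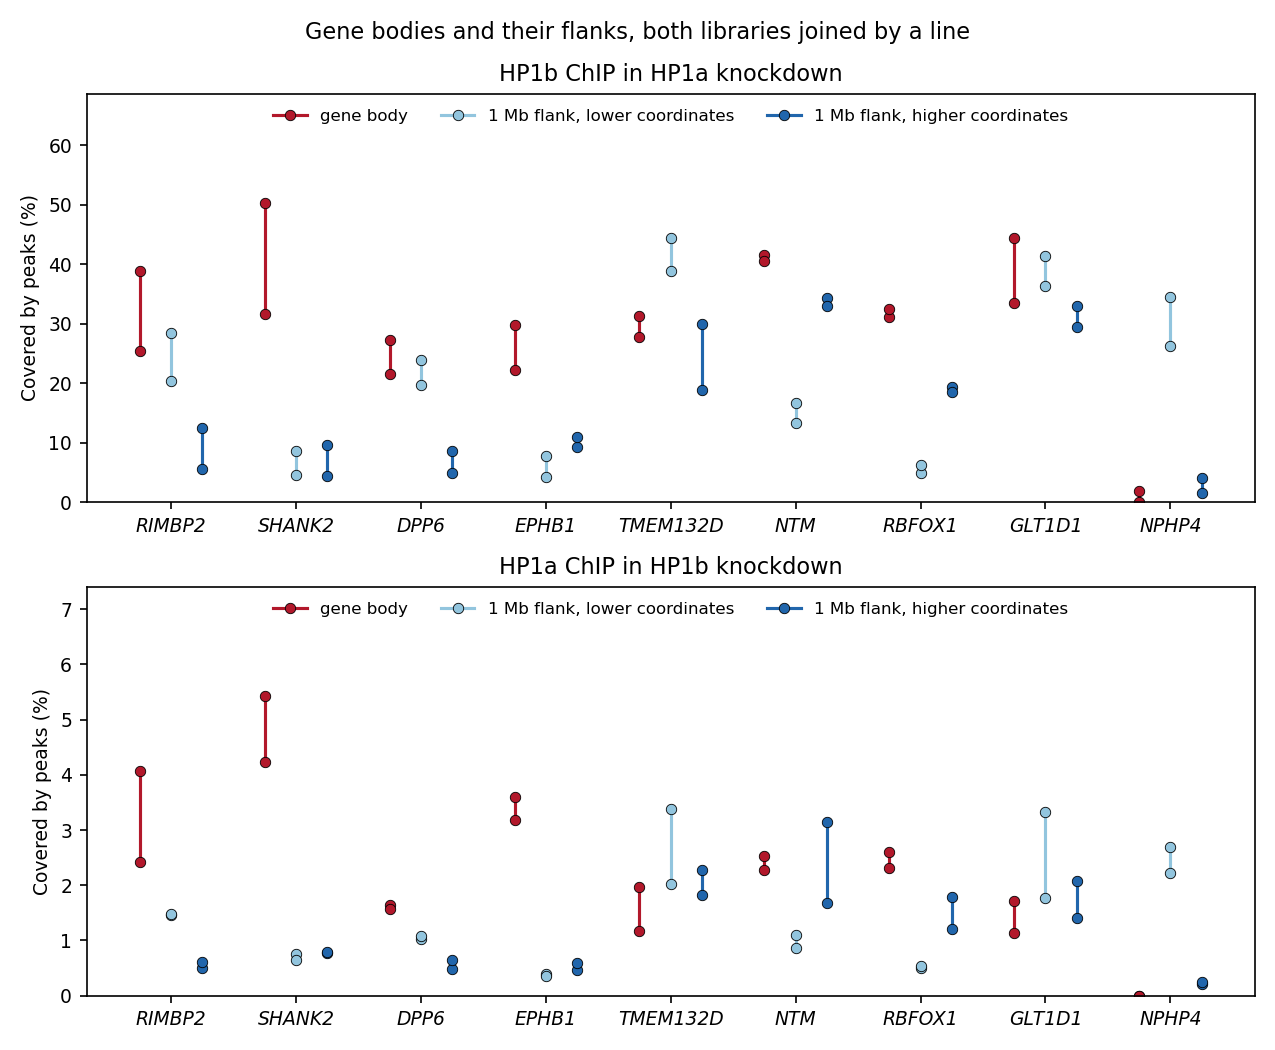
Percentage of bases covered by peaks in each gene body and in the 1 Mb on either side, for HP1b ChIP in HP1a-knockdown cells (above) and HP1a ChIP in HP1b-knockdown cells (below), with both libraries of a group joined by a line. SHANK2, EPHB1, RIMBP2, DPP6 and RBFOX1 have bodies above both flanks in both panels, and NPHP4 has a high flank on its low-coordinate side only.

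Body and flanks also differed for HP1a. In HP1b-knockdown cells, HP1a covered 4.82% of SHANK2 and 0.704 and 0.782% of its flanks, and in wild-type cells 3.73% of the gene and 1.26 and 1.65% of its flanks. It covered 3.39% of EPHB1 and 0.380 and 0.530% of its flanks in the knockdown, against 2.32, 2.98 and 1.99% in wild type. RIMBP2 had 3.25% in the gene and 1.47 and 0.559% beside it in the knockdown, against 0.775, 2.28 and 1.27% in wild type. The gene body was above both flanks in both libraries at 5 of the 8 members in the knockdown and at 3 of 8 in wild type. The share of all genes for which this holds was not taken. Within the genes, 21.9 to 43.0% of the HP1a peak bases of the HP1b knockdown lay in sequence covered by HP1b in both HP1a-knockdown libraries, which made up 11 to 23.9% of the genes. These are different cells, so the overlap is one of positions only.

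The nearest genes on each side were looked at for HP1a. Of 15 nearest protein-coding neighbours that are not members, 8 had enough HP1a peaks, and of these 1 rose and 4 fell, against 1.76 and 29.1% of all genes. Relative HP1a coverage rose at OPCML, an IgLON gene 78.2 kb from NTM (log2 2.63, SE 0.38, adjusted p 0.0249, limma), where HP1a covered 1.67 and 3.17% in the knockdown and 2.85 and 2.11% in wild type. It fell at CTTN beside SHANK2, PPP2R3A beside EPHB1, PAXIP1 beside DPP6 and SNX19 beside NTM (adjusted p 0.024 to 0.031, limma). These 4 genes were listed at 0 in both HP1b-knockdown libraries, against means of 0.899, 1.56, 2.45 and 1.20% in wild type, so no fold is given. No gene was called lower, these 4 included, with a replicate block, −log10 p of at least 4, no filter, the pseudocount multiplied by 4 or the same number of peaks. OPCML differed by a log2 of −0.09 without scaling (adjusted p 0.867).

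Relatives and partners of the members moved in both directions. Of 23 paralogs, 15 had enough HP1a peaks, and relative HP1a coverage rose at 4 and fell at 1, with a median log2 difference of 0.82 against −1.22 for all genes. Over all genes 1.76% rose and 29.1% fell. Without scaling 0 of the 15 rose and 4 fell, and the median was −1.15 against −2.15 for all genes. Of all 8504 genes 43 rose and 4500 fell on that scale. The paralogs that rose with scaling were OPCML, the splicing regulator RBFOX3 and the membrane protein genes TMEM132B and TMEM132C. RBFOX3 had 0.962 and 1.22% in HP1b-knockdown cells and 0.868 and 0.495% in wild-type cells (log2 3.35, SE 0.36, adjusted p 0.024, limma). TMEM132C had 1.89 and 4.01% in the knockdown and 2.86 and 3.05% in wild type (log2 2.60, SE 0.46, adjusted p 0.033, limma). FAP, a peptidase gene related to DPP6, fell and was listed at 0 in both knockdown libraries, against 1.93 and 1.44% in wild type. For HP1b, TMEM132C had 42.6 and 47.7% in HP1a-knockdown cells and 10.01 and 13.7% in wild-type cells, and OPCML had 32.7 and 32.0% in the knockdown and 9.43 and 8.81% in wild type. Relative HP1b coverage of the 22 paralogs fitted was above wild type in both libraries at 10 and below at 7, against 13.6% above and 39.9% below among all genes. OPCML and TMEM132C each lie within 1 Mb of a member, NTM and GLT1D1.

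Of 25 binding partners of the members' proteins, 20 were fitted for HP1a. Relative coverage rose at 2, CACNA1A and the postsynaptic scaffold gene DLGAP2, and fell at 3, ATXN2, KCND2 and KCNIP3, with a median of −0.28. Over all genes 1.76% rose and 29.1% fell, with a median of −1.22. Without scaling 0 of the 20 rose and 9 fell, with a median of −2.11. Of all 8504 genes 43 rose and 4500 fell on that scale, with a median of −2.15. DLGAP2 had 2.10 and 1.71% covered by HP1a in HP1b-knockdown cells and 1.89 and 1.90% in wild-type cells (log2 2.71, SE 0.15, adjusted p 0.024, limma). KCND2, the pore subunit of the channel that DPP6 joins, was listed at 0 in both knockdown libraries, against 0.378 and 0.317% in wild type. For HP1b, KCND2 had 0.199 and 0.568% in HP1a-knockdown cells and 0.752 and 0.204% in wild-type cells, so the groups overlapped. The channel partner KCNIP3 had 2.36 and 4.79% in the knockdown and 6.76 and 15.5% in wild type, on the other side from DPP6.

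Other neuronal genes were divided as well. All 42 on the list were fitted for HP1a, and relative coverage rose at 7 (CSMD2, GRID1, MYT1L, NTRK3, PTPRN2, PTPRT and SORCS2) and fell at 4 (CNTN5, CNTN6, SYT1 and TENM2), with a median of −0.42. Over all genes 1.76% rose and 29.1% fell, with a median of −1.22. Without scaling 0 of the 42 rose and 29 fell, with a median of −2.84. Of all 8504 genes 43 rose and 4500 fell on that scale, with a median of −2.15. CSMD2 had 1.99 and 2.01% in HP1b-knockdown cells and 1.95 and 1.93% in wild-type cells (log2 2.75, SE 0.13, adjusted p 0.024, limma). The synaptic vesicle gene SYT1 and the contactin genes CNTN5 and CNTN6 were listed at 0 in both knockdown libraries. For HP1b, relative coverage was above wild type in both HP1a-knockdown libraries at 17 of the 42 and below at 9, with a median log2 difference of 0.14, while of all genes 13.6% were above and 39.9% below, with a median of −0.47. SYT1 had an HP1b share of 1.49 and 1.48% in the knockdown and 1.78 and 1.75% in wild type, and CNTN5 had 0.174 and 0.440% in the knockdown and 0.759 and 0.655% in wild type. The list thus holds neuronal genes whose HP1b shares were no higher in the knockdown than in wild type. No gene of the 3 lists passed for HP1b by limma, nor did any of the 12363 genes (0.0% in each direction), although 3065 had an unadjusted p under 0.05.

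Among 1628 genes covered in all 8 libraries, the 5 whose relative coverage was most like the members' mean profile over the 8 libraries were SRRM4 (Pearson r 0.993), CSMD2 (0.992), DLGAP2 (0.989), PTPRN2 (0.983) and NTF3 (0.982). They were chosen for this likeness, so their values are a description. HP1b peaks covered 32.8 and 32.3% of SRRM4 in HP1a-knockdown cells and 5.48 and 5.49% in wild-type cells. NTF3 had 37.5 and 54.4% in the knockdown and 13.3 and 15.1% in wild type. PTPRN2 had 14.8 and 29.5% in the knockdown and 5.67 and 5.86% in wild type. HP1a covered 2.58 and 2.45% of SRRM4 in HP1b-knockdown cells and 1.32 and 1.55% in wild-type cells, so at that gene, as at RIMBP2, both knockdown libraries were above both wild-type libraries on the absolute scale.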

How the data were processed

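The data are 8 broad peak lists from ChIP-seq of HP1a and HP1b in MCF10A cells. Per the submitters' processing notes the tools were Trimmomatic, Bowtie2, SAMtools and MACS3 on the build hg38, while their versions, the settings for calling peaks and any input library are not stated in those sources. Each deposited list gives, for a peak, its position, the ratio (fold enrichment) over background, −log10 p, −log10 q and a score that is 10 times the −log10 q. Chromosomes 1 to 22 and X hold 99.1 to 99.7% of each list and were kept, and overlapping peaks of a list were merged before bases were counted. Gene bodies are those of RefSeq on GRCh38.p14.

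The 9 genes and the gene lists were chosen with earlier results of these data known. Relative coverage was fitted with limma 3.58.1 in R 4.3.3 (variance trend) as log2 of the value plus a pseudocount, the 10th percentile of values above 0 (4.96 bases per Mb for HP1a and 2.16 for HP1b). Only the 4 libraries of a comparison entered, without a covariate, and a gene was fitted if at least 2 of them had a peak. P-values were adjusted by Benjamini-Hochberg over all genes fitted, with a threshold of 0.05. The fits were also run on simulated data, and nothing is read from that run here. A permutation test of a single gene, 2 libraries against 2, cannot give a two-sided exact p below 0.333, so none is given.

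Named besides the 9 genes were their nearest neighbours on each side, the 5 genes with the most similar profile, and, per list, at most 4 genes past the threshold, by size of the log2 difference. Regions, promoter windows, equal parts of genes and flanks were counted with Python 3.11.15. Alternatives changed the strength required of a peak, the number of peaks per library, the scaling, the filter, the pseudocount, the gene bounds, the libraries in the fit, a replicate block and each library left out in turn.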

Additional observations from a re-analysis of the deposited data

Results flagged for a closer look

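At 3 members the covered share moved in opposite directions in the 2 knockdowns in every library, a difference that was not tested. For DPP6 the mean share of the knockdown libraries minus that of the wild-type libraries was −0.509 percentage points for HP1a and 17.2 for HP1b. For RBFOX1 it was −2.13 points for HP1a and 12.5 for HP1b. For GLT1D1 it was −3.61 points for HP1a and 29.0 for HP1b. These differences are on the absolute scale, on which the HP1a share was below wild type in both HP1b-knockdown libraries at 79.5% of the genes fitted.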

How the results depend on the processing

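For HP1a, relative coverage was higher in HP1b-knockdown cells in 91 of 96 alternative values of the 8 members fitted. The 5 negative ones came without scaling to the library total: DPP6 −0.39 (adjusted p 0.0895), TMEM132D −0.36 (0.450), NTM −0.0925 (0.700), RBFOX1 −0.89 (0.0162) and GLT1D1 −1.70 (0.0397). Scaling moved the median of all genes by itself, to −1.22 with it against −2.15 without. In all 12 alternatives these 8 members lay above the median of all genes.

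Calls were less stable. The 7 members called higher became 0 with −log10 p of at least 4, no filter, no scaling, the pseudocount multiplied by 4 or the same number of peaks, and 4 to 8 with a library left out. Without wild-type replicate 1 the calls of DPP6 (adjusted p 0.102), NTM (0.102) and RBFOX1 (1.00) ended, without wild-type replicate 2 those of DPP6 (0.116), TMEM132D (0.121) and RBFOX1 (1.00), and without knockdown replicate 1 GLT1D1 passed (0.030). Of 150 genes called higher for HP1a, 0 were left with −log10 p of at least 4, no filter, the pseudocount multiplied by 4 or the same number of peaks (1614, 2267, 3338 and 851 with unadjusted p under 0.05, limma). The count was 356 with all 8 libraries in a fit, 227 with 10 kb on each side, 43 without scaling and 22 to 1032 with a library left out. The 2475 called lower became 0 in those 4 settings, 4500 without scaling and 1 to 2311 with a library left out. The causes were not tested.

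For HP1b no gene passed in either direction. All 8 libraries in a fit gave 66 higher and 189 lower, the same number of peaks 10 and 1, and leaving out a library 72 to 256 higher and 75 to 1764 lower. The sign for the members other than NPHP4 was positive in all 12 alternatives each. At NPHP4 it was positive in 2 of 12, with a log2 of 1.20 when 10 kb on each side were added.

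The labels do not say whether replicate numbers pair the samples. The correlation of replicate differences was 0.022 for HP1a and 0.047 for HP1b, which cannot settle how the libraries were prepared. With a replicate block 19 genes were higher and 0 lower for HP1a (3786 with unadjusted p under 0.05), 5 members were called, and for HP1b 121 genes were higher and 281 lower. Without read counts, no limit from depth could be set.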
